A study of Mus musculus with 4 samples.

Results

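Genes of cartilage and tendon were followed in single-cell RNA-sequencing libraries of the mouse carotid artery, taken before and after wire injury. The set held 10 of the 31053 genes listed in the files. They were chosen by name, with earlier results of the same libraries known, and they were Comp, Cilp, Cilp2, Acan, Chad, Cnmd, Hapln1, Scx, Tnmd and Mkx. In addition, the fibroblasts of day 14 were divided by Col2a1, the chain of type II collagen, into cells with at least 1 unique molecular identifier (UMI) of it and cells with none.

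All mice were of the C57BL/6 strain, were male per the study's methods and were 11 weeks old before injury. One library was made from carotid arteries before injury (day 0), and 1 each from injured left carotids 3, 7 and 14 days after a wire had been passed through the vessel. Each library pooled arteries of several mice, vessels with visible thrombosis had been left out, and dead cells were removed after enzymatic digestion. With 1 library per day there was no replicate check, a change with time and a difference between libraries cannot be told apart, and no test was made. All intervals are exact 95% intervals and cover counting error only. Where a group held no UMI of a gene, the limit given in the text is the level of 3 counts.

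In cartilage, fibrils of type II collagen hold a gel of aggrecan (Acan) bound to hyaluronan and fastened by link protein (Hapln1), while chondroadherin (Chad), the thrombospondin-related protein Comp and the cartilage intermediate layer proteins (Cilp, Cilp2) are smaller parts of this matrix. Chondromodulin (Cnmd) and tenomodulin (Tnmd) are related membrane proteins of cartilage and tendon, and scleraxis (Scx) and Mohawk (Mkx) are transcription factors of the tendon lineage. In arteries, cartilage-type matrix is best known from calcified lesions.

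The libraries of days 0, 3, 7 and 14 held 333, 1689, 3001 and 1138 barcodes with 2672722, 18989081, 27973418 and 13329564 UMIs. Between libraries, 217 barcodes were shared, nearly all between days 0 and 3 or days 7 and 14, and the shallower copy of each was removed. After all filters 5403 cells remained, of which 746 (13.8%) received no class. Fibroblast-like cells, named from markers such as Dcn, Lum and Pdgfra, numbered 210, 121, 211 and 500 on days 0, 3, 7 and 14. The median depth of these cells was 10106, 40712, 22884 and 18571 UMIs. Smooth muscle-like cells, named from markers such as Myh11, Acta2 and Tagln, numbered 12, 103, 60 and 73. All 9 fibroblast markers were detected in the fibroblast-like cells of each day, at a summed level of 33683 to 65211 counts per 1e6 UMIs (CPM), against 390 to 1603 for the 8 smooth muscle markers. Neither the 10 genes nor Col2a1 entered the clustering.

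Levels are given as CPM, the UMIs of a gene summed over the cells of a class and day and divided by all UMIs of those cells, times 1e6. They compare 1 gene between groups of cells and not genes with each other. A gene was counted as higher or lower when its ratio reached 2-fold, its interval excluded 1 and both groups together held at least 20 UMIs. In a bulk sum over cells, fewer cells with a transcript and less of it per cell cannot be told apart, so shares of cells with a UMI are given as well. With all days together, 7 of the 10 genes had a higher level in fibroblast-like cells than in smooth muscle-like, endothelial-like or monocyte/macrophage-like cells, and the exceptions, Acan, Scx and Cilp2, had their highest level in smooth muscle-like cells. Of the 7, Chad, Cnmd and Hapln1 rested on 2 cells of day 14 that are described further on. Without them, Chad had 3, Cnmd 2 and Hapln1 3 UMIs in fibroblast-like cells. The levels of Cnmd and Hapln1 then lay below those of smooth muscle-like cells, and 5 of the 10 genes were highest in fibroblast-like cells among the classes compared. Chad was among the 5, but its 0.133 CPM lay below the 2.76 CPM of T cell-like cells, a class outside this comparison. Without cells of over 25000 UMIs, the number of genes highest in fibroblast-like cells was also 5.

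**Figure D1:**
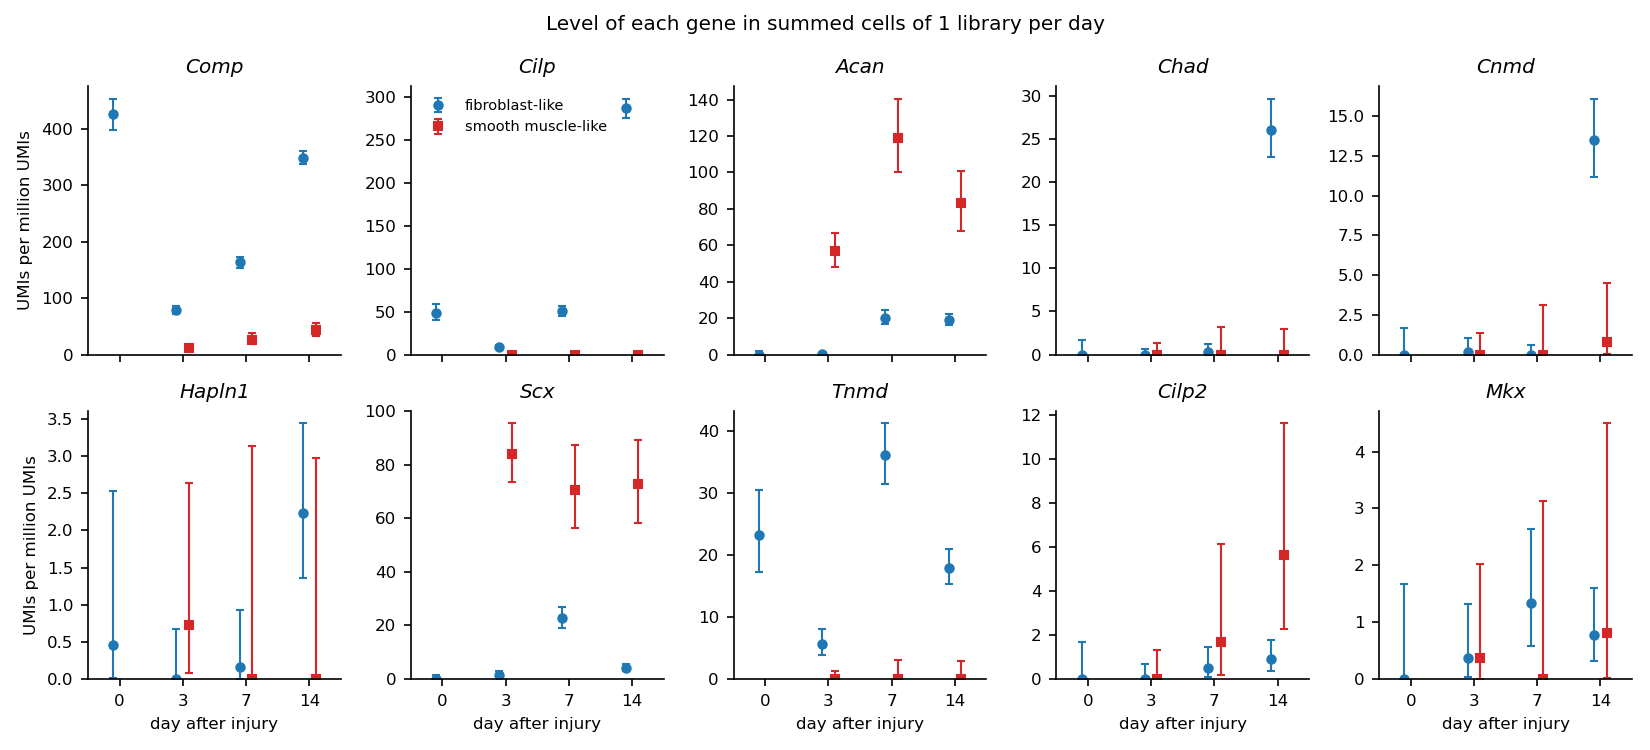
Level of each gene (vertical axis, CPM, starting at 0) by day after injury (horizontal axis) in fibroblast-like and smooth muscle-like cells, 1 library per day, bars being exact 95% Poisson intervals. The 12 smooth muscle-like cells of day 0 are not drawn. Comp, Cilp and Tnmd lay in fibroblast-like cells, Acan and Scx were higher in smooth muscle-like cells on days 3, 7 and 14, and Chad and Cnmd held more than 2 UMIs in fibroblast-like cells at day 14 alone.

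Comp, the cartilage oligomeric matrix protein, had the most UMIs of the 10 genes and was present before injury. Fibroblast-like cells held 934, 428, 971 and 3129 Comp UMIs on days 0, 3, 7 and 14, or 425, 78.4, 163 and 349 CPM. The levels of days 0 and 14 were the closest to each other and that of day 3 was the lowest. Against day 0 the level was 0.184-fold (0.164 to 0.207) at day 3, 0.383-fold (0.35 to 0.42) at day 7 and 0.82-fold (0.762 to 0.883) at day 14. The value of day 3 rested on deep cells. Without cells of over 25000 UMIs, the day 3 ratio was 1.05 (0.879 to 1.26) and the day 7 ratio 0.681 (0.596 to 0.776), and neither was then lower by the 2-fold rule. With each library clustered on its own, the day 7 ratio was 0.594 (0.522 to 0.677). In that setting 85 cells of day 0 were fibroblast-like, of which 80 were among the 210 above, so its day 0 levels rest on fewer cells. There, 82 cells of day 0 were smooth muscle-like, of which 11 were among the 12 above. The division of the day 0 cells into these classes thus depended on the clustering. A Comp UMI was found in 37.6, 41.3, 46.4 and 47.4% of the cells of days 0, 3, 7 and 14, and in 21.3, 15.7, 12.2 and 21.6% after each cell was thinned to 1000 UMIs.

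Comp was unevenly spread among the fibroblast-like clusters. The cluster led by Rbp4 and Fmo2, with 185 cells of day 0 and 192 of day 14, carried 521, 242, 403 and 629 Comp CPM on days 0, 3, 7 and 14. Within it, the day 14 level was 1.21-fold (1.12 to 1.31) that of day 0. The cluster led by Igfbp5 and Sema3c had no Comp UMI in 25 cells of day 0, which allowed up to 7.4 CPM, and 5 UMIs in 45 cells of day 14. At day 3, the cluster led by Saa3 and Prg4 held 40 of the fibroblast-like cells, at a median depth of 67109 UMIs, and carried 24.9 Comp CPM against 242 CPM in the Rbp4 cluster. The uneven make-up of the days thus moved together with the Comp level, and its part in it was not tested. Smooth muscle-like cells held 11.3, 26.4 and 42.8 Comp CPM on days 3, 7 and 14. As background, the immune classes together held 3.74, 0.737, 3.77 and 6.58 CPM on days 0, 3, 7 and 14.

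Cilp, a glycoprotein of cartilage matrix, was highest at day 14. Its UMIs in fibroblast-like cells were 107, 46, 304 and 2573 on days 0, 3, 7 and 14, or 48.7, 8.42, 51 and 287 CPM. Day 14 stood above the other days, and the intervals of days 0 and 7 overlapped. The day 14 level was 5.89-fold (4.85 to 7.21) that of day 0 and 5.62-fold (4.99 to 6.35) that of day 7, and the day 3 level was 0.173-fold (0.12 to 0.247) that of day 0. Without cells of over 25000 UMIs, the day 7 level was 2.66-fold (2.05 to 3.47) that of day 0 and past the 2-fold rule. A Cilp UMI was found in 15.7, 14, 20.4 and 32% of the cells, and in 4.46, 0.826, 5.85 and 14.5% after thinning to 1000 UMIs. The 5 cells with the most Cilp held 19.9% of its UMIs at day 14.

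Most Cilp of day 14 lay in 1 cluster. The cluster led by C1qtnf3 and Angptl1 held no cell of day 0, 1 of day 3, 35 of day 7 and 233 of day 14. It carried 2478 of the 2573 fibroblast-like Cilp UMIs of day 14, at 507 CPM, and stood at 231 CPM at day 7. Within the Rbp4 cluster Cilp went the other way, with 59.7, 25.9, 23.7 and 17.5 CPM on days 0, 3, 7 and 14 and a day 14 over day 0 ratio of 0.293 (0.207 to 0.409). At day 14 the C1qtnf3 cluster held 29-fold (22.2 to 38.7) the Cilp and 0.369-fold (0.342 to 0.397) the Comp of the Rbp4 cluster. As the clusters were made from the same cells, these ratios describe them and test nothing. Smooth muscle-like cells held no Cilp UMI on any day, which allowed up to 30.1, 1.09, 2.55 and 2.42 CPM on days 0, 3, 7 and 14. Immune classes held 0, 0, 0.973 and 1.55 CPM.

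**Figure D2:**
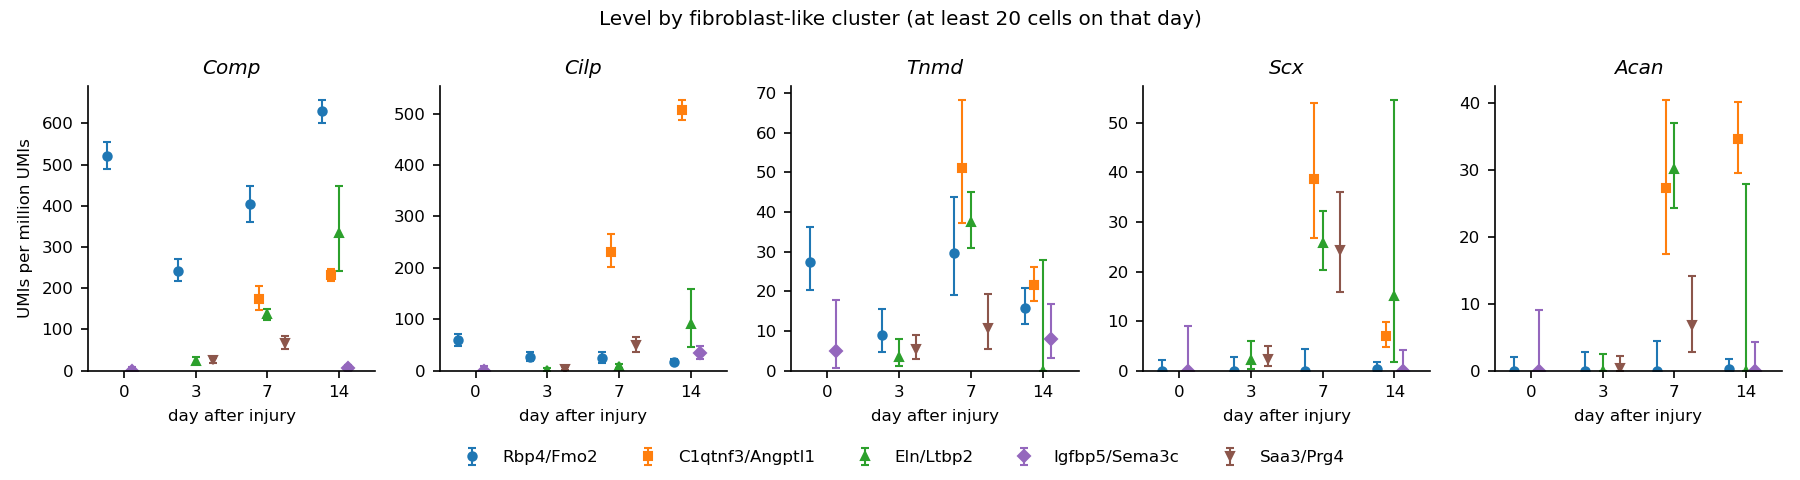
Level of 5 of the genes (vertical axis, CPM, starting at 0) by day after injury in the fibroblast-like clusters, each named by its leading genes and drawn where it held at least 20 cells, bars being exact 95% Poisson intervals. Comp was highest in the Rbp4 cluster on every day, Cilp of day 14 in the C1qtnf3 cluster, and most of the Acan of that cluster at day 14 came from 2 cells.

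Comp and Cilp were found partly in the same cells. At day 14, 237 of the 500 fibroblast-like cells had a Comp UMI, 160 had a Cilp UMI and 81 had both, which was 34.2% of the Comp cells and 50.6% of the Cilp cells. Of the cells without Comp, 30% had Cilp. Over these 500 cells of 1 library, the genes whose levels were most like Cilp were C1qtnf3 (r = 0.585), Angptl1 (r = 0.528) and Pcsk5 (r = 0.499), and those most like Comp were Slc6a6 (r = 0.433), Fmod (r = 0.423) and Igfbp4 (r = 0.4). Cilp2, the paralogue of Cilp, had 22 UMIs in all kept cells. Of these, 8 were in fibroblast-like and 7 in smooth muscle-like cells of day 14, or 0.891 and 5.65 CPM, too few for a count of higher or lower.

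Tnmd, tenomodulin, was a gene of fibroblast-like cells, which held 458 of its 469 UMIs in all kept cells. The UMIs of days 0, 3, 7 and 14 were 51, 31, 215 and 161, or 23.2, 5.68, 36.1 and 17.9 CPM. Day 7 was the highest and day 3 the lowest, and the intervals of days 0 and 14 overlapped. Against day 0 the ratios were 0.245 (0.151 to 0.39) at day 3, 1.56 (1.14 to 2.15) at day 7 and 0.773 (0.561 to 1.08) at day 14, of which the first was lower by the 2-fold rule. With each library clustered on its own, the day 3 ratio was 0.524 (0.25 to 1.2) and no longer counted as lower, and the day 7 ratio was 4.04 (2.15 to 8.54) and counted as higher. Day 0 held 85 fibroblast-like cells in that setting. Among clusters with at least 20 cells at day 7, Tnmd stood at 51.1 CPM in the C1qtnf3 cluster, 37.5 CPM in the cluster led by Eln and Ltbp2, 29.7 CPM in the Rbp4 cluster and 10.7 CPM in the Saa3 cluster, the first 3 with overlapping intervals. The Igfbp5 cluster had 7 cells at day 7, of which 1 held all of its 22 Tnmd UMIs, or 98.1 CPM. Smooth muscle-like cells held no Tnmd UMI on any day, and the immune classes held 1 in all.

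Scx, the tendon transcription factor scleraxis, was found in smooth muscle-like cells after injury. They held 230, 83 and 90 UMIs on days 3, 7 and 14, or 83.9, 70.6 and 72.6 CPM, with overlapping intervals. The 12 smooth muscle-like cells of day 0 held 1 UMI, with an interval of 0.254 to 56 CPM, so that the level before injury was not resolved at this depth. Fibroblast-like cells held 0, 9, 136 and 37 Scx UMIs on days 0, 3, 7 and 14, or 0, 1.65, 22.8 and 4.12 CPM. Day 7 stood above the other days in them. It was 16.7-fold higher than day 0 with day 0 set to the limit of 3 counts, and the exact lower bound of the ratio was 13.4. The day 14 level was 0.181-fold (0.122 to 0.261) that of day 7. The smooth muscle-like level was 50.9-fold (26.3 to 113), 3.09-fold (2.32 to 4.09) and 17.6-fold (11.9 to 26.6) the fibroblast-like level on days 3, 7 and 14. Without cells of over 25000 UMIs the day 7 ratio was 1.71 (0.834 to 3.47), and with each library clustered on its own it was 1.88 (1.43 to 2.46), both under 2-fold. In the latter setting 125 cells of day 7 were smooth muscle-like, the 60 above among them. Endothelial-like cells held 4 Scx UMIs in 2 of 40 cells at day 3 and 15 in 8 of 57 cells at day 7. Mkx, the other tendon transcription factor, had 20 UMIs in all kept cells, of which fibroblast-like cells held 0, 2, 8 and 7 on days 0, 3, 7 and 14.

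Acan, aggrecan, was likewise highest in smooth muscle-like cells. It had 156, 140 and 103 UMIs there on days 3, 7 and 14, or 56.9, 119 and 83.1 CPM, found in 35, 41.7 and 49.3% of the cells. None was found in the 12 cells of day 0, which allowed up to 30.1 CPM. Fibroblast-like cells held 0, 1, 121 and 170 UMIs on days 0, 3, 7 and 14, or 0, 0.183, 20.3 and 18.9 CPM. The smooth muscle-like level was 5.86-fold (4.56 to 7.54) the fibroblast-like one at day 7 and 4.39-fold (3.4 to 5.64) at day 14, and at day 3, where fibroblast-like cells had 1 UMI, the lower bound of the ratio was 54.9. In fibroblast-like cells of day 14, 151 of the 170 Acan UMIs lay in 2 cells, and without them the day 14 ratio was 39.1 (23.8 to 67.5). At day 7 the ratio was 3.42 (2.65 to 4.4) without doublet removal, 12.5 (8.83 to 18) with each library clustered on its own and 22.4 (8.2 to 85.7) without cells of over 25000 UMIs. Immune classes held 0, 0.486 and 1.16 CPM on days 3, 7 and 14. Of the 10 genes, 5, 5 and 8 had enough UMIs for this comparison on days 3, 7 and 14. On each day 2 of them, Acan and Scx, were higher in smooth muscle-like cells, where 12.4%, 10.4% and 10.2% of all genes with enough UMIs were. Lower were 3, 3 and 5, against 11.5%, 9.89% and 14.8% of all genes, namely Comp, Cilp and Tnmd on each day and Chad and Cnmd at day 14. Without the 2 cells, 2 of 5 genes were higher and 3 lower at day 14, against 10.2% and 14.8%.

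Acan and Scx were often found in the same fibroblast-like cells of day 7. Of 18 cells with Acan and 42 with Scx, 13 had both, and 15% of the cells without Acan had Scx. The cells with Acan were deep, with a median of 46022 UMIs against 20757 in those without. Beside this, Acta2, a contractile gene, stood at 1999 CPM in the cells with Acan and 815 CPM in those without, Myh11, the defining smooth muscle marker, at 19.6 and 6.15 CPM, and Pdgfra, a fibroblast marker, at 91.3 and 191 CPM. Lum, another fibroblast marker, differed little, at 1979 CPM with Acan and 2194 CPM without, while Dcn stood at 2663.5 and 6540.64 CPM. In the division by Scx, Myh11 went the other way, at 3.37 CPM with Scx and 10.8 CPM without. Acta2 and Pdgfra kept their direction there, at 1538 and 709 CPM and at 93.3 and 220 CPM. The part of depth and of mixed droplets in the shared detection was not tested. The Eln cluster held 90 of the 121 Acan UMIs and 77 of the 136 Scx UMIs of day 7, and the Rbp4 cluster held none of either. At day 14, 14 fibroblast-like cells had Acan, 8 had Scx and none had both.

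Over 25 sums of a class and day, the genes whose levels were most like Scx were Ttll7 (r = 0.983), Ncam1 (r = 0.972) and Tagln (r = 0.968), and those most like Acan were Kcnma1 (r = 0.978), Gucy1a1 (r = 0.966) and Wscd2 (r = 0.962). Those most like Comp were Dact1 (r = 0.978), Igfbp5 (r = 0.976) and Clec11a (r = 0.975), those most like Cilp were Islr2 (r = 0.976), St8sia2 (r = 0.975) and Cpz (r = 0.971), and those most like Tnmd were Drp2 (r = 0.976), Nkd2 (r = 0.971) and Fam180a (r = 0.966). Sums of 1 day share a library.

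Counted over the 10 genes, 0, 2 and 5 were higher in fibroblast-like cells on days 3, 7 and 14 than on day 0, where 10.9%, 11.7% and 7.88% of all genes with enough UMIs were. Those of day 7 were Acan and Scx, and those of day 14 were Cilp, Acan, Chad, Cnmd and Scx. Lower were 3, 1 and 0 of the 10 genes, against 10.5%, 8.08% and 4.19% of all genes. Those of day 3 were Comp, Cilp and Tnmd, and that of day 7 was Comp. On days 3, 7 and 14, 3, 5 and 8 of the 10 genes had enough UMIs to be counted, and the 3 comparisons share the day 0 library. Since the genes were chosen with these levels known, the counts describe them and test nothing. Without the 2 cells described next, 2 genes were higher at day 14, Cilp and Scx, of 4 with enough UMIs, against 7.77% of all genes, and none was lower, against 4.19%. Without cells of over 25000 UMIs, 1 and 3 were higher on days 7 and 14. The fibroblast-like clusters differed between the days. Within the Rbp4 cluster, 3 genes, Comp, Cilp and Tnmd, had enough UMIs and none of them was higher than on day 0 on any day, where 5.87%, 4.04% and 4.41% of all genes were on days 3, 7 and 14. Lower there were all 3 at day 3 and Cilp on days 7 and 14, against 8.38%, 5.42% and 3.22% of all genes.

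These 2 cells stood apart by Col2a1. Fibroblast-like cells of day 14 held 2664 Col2a1 UMIs, of which 1762 were in 1 cell and 878 in another, together 99.1%. A Col2a1 UMI was found in 23 of the 500 cells, or 4.6% (2.94 to 6.82). Just inside the division lay 20 cells with 1 UMI, and just outside it 477 cells with 0, while 1 further cell had 4. In immune classes of the same library, which should lack type II collagen, 5.33% of 375 cells (3.29 to 8.12) had a Col2a1 UMI, at a median depth of 5232 UMIs against 18571. Without the 2 cells the fibroblast-like share was 4.22% (2.63 to 6.37), at 2.69 CPM against 7.74 CPM in the immune classes. Neither value, with the 2 cells left out, was thus above that of the immune classes, and the source of the single UMIs was not tested. After thinning to 1000 UMIs, 3 of 490 fibroblast-like cells (0.612%) had a Col2a1 UMI, and 1 of 488 (0.205%) without the 2 cells, against 2 of 334 immune cells (0.599%). On days 0, 3 and 7, fibroblast-like cells held 0, 0 and 6 Col2a1 UMIs.

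**Figure D3:**
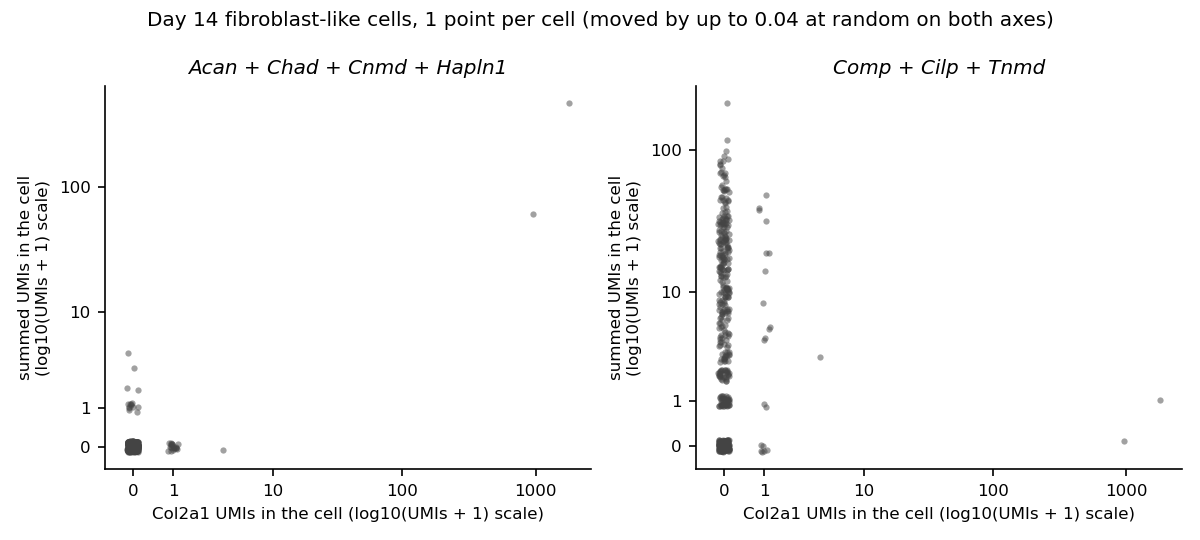
The 500 fibroblast-like cells of day 14, 1 point per cell, by Col2a1 UMIs (horizontal axis) and by the summed UMIs of Acan, Chad, Cnmd and Hapln1 or of Comp, Cilp and Tnmd (vertical axis), on log scales. The cells with 878 and 1762 Col2a1 UMIs stood alone, with the highest sums of the first 4 genes and at most 1 UMI of the other 3.

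Chad, Cnmd, Hapln1 and most Acan of the fibroblast-like cells lay in these 2 cells. Of 234 Chad UMIs of day 14, 212 were in the cell with 1762 Col2a1 UMIs and 21 in the cell with 878. Cnmd had 108 and 12 of its 121 UMIs there, Hapln1 18 and 1 of 20, and Acan 118 and 33 of 170. The pair thus held 99.6% of the Chad, 99.2% of the Cnmd, 95% of the Hapln1 and 88.8% of the Acan UMIs of that class and day. Of the other genes it held 1 Comp UMI and none of Cilp, Cilp2, Scx, Tnmd or Mkx. The other fibroblast-like cells of day 14 held 19 Acan UMIs, or 2.13 CPM, and 1 UMI each of Chad, Cnmd and Hapln1. On days 0, 3 and 7, fibroblast-like cells held 0, 0 and 2 Chad, 0, 1 and 0 Cnmd and 1, 0 and 1 Hapln1 UMIs. Against day 0, with its 0 UMIs set to 3 counts, Chad was 19.1-fold, Acan 13.9-fold and Cnmd 9.87-fold higher at day 14. The exact lower bounds of these ratios were 15.4, 11.2 and 7.91. Without the 2 cells none of these genes had the 20 UMIs needed to be counted as higher, Acan having 19 against 0 at day 0.

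**Figure D4:**
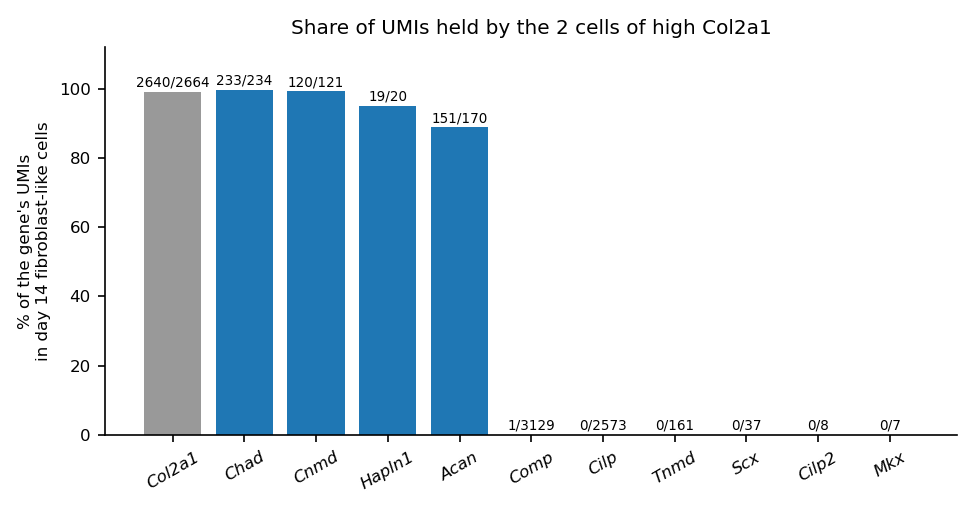
Percent of each gene's UMIs in fibroblast-like cells of day 14 (vertical axis, starting at 0) that lay in the 2 cells of high Col2a1. Col2a1, Chad, Cnmd, Hapln1 and Acan had 88.8% to 99.6% of their UMIs there, and Comp 0.032%.

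The 2 cells differed in quality. The first held 39555 UMIs, 3.41% of them mitochondrial, and the second 4233 UMIs with 18.9% mitochondrial, close to the limit of 20%. One more barcode of day 14, with 692 Col2a1 UMIs among 6309, had 27.6% mitochondrial UMIs and was removed by that limit. It held 48 Acan, 8 Chad and 3 Cnmd UMIs. Of 8 chondrocyte markers the first cell had UMIs of 7 and the second of 4, and both fell in the C1qtnf3 cluster. Pdgfra was at 0 in both, Dcn had 298 and 12 UMIs and Lum 115 and 4. The markers of endothelial cells were at 0 in both, and those of monocytes and macrophages had 1 UMI in the first and 0 in the second. Whether these cells belonged to the artery wall was not tested.

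Of the 4 genes whose fibroblast-like UMIs of day 14 lay mostly in the 2 cells, Acan and Cnmd had a match to a hexamer searched in the 250 bases before the start of the gene, and Chad and Hapln1 had none. The windows of Acan and Cnmd are shown from RefSeq, on the GRCm38.p6 build and in the direction of the gene. Capitals mark hexamers searched on both strands, namely AACAAT, a core bound by SOX factors, and the E-boxes CATCTG and CAGCTG. The Acan window lies at chr7:79052976-79053225 on the plus strand and the Cnmd window at chr14:79662184-79662433 on the minus strand.
Acan: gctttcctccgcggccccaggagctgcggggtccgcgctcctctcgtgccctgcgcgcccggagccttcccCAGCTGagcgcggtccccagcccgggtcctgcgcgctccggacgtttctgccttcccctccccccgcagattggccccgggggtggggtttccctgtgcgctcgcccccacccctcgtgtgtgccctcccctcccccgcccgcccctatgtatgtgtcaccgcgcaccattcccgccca
Cnmd: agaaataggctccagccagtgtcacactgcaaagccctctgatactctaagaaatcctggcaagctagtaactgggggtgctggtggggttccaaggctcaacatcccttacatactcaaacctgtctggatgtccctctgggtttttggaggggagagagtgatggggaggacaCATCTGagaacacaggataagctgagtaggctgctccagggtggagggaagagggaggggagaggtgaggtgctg
The Acan window held 1 CAGCTG and the Cnmd window 1 CATCTG, and neither held AACAAT. Sequences were found for 7 of the 10 genes, and among them AACAAT occurred in Cilp2 and CAGCTG also in Cilp. Of 32851 such windows of all genes, 9.42% held AACAAT, 14.4% CATCTG and 13% CAGCTG. G and C made up 74.4% of the Acan and 54% of the Cnmd window, against a median of 52.4% over all windows. A match describes these letters and not a bound site.

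Between the 23 Col2a1-positive and the 477 Col2a1-negative fibroblast-like cells of day 14, 4 of the 10 genes were higher in the positive cells, against 1.67% of all genes with enough UMIs, and 1 was lower, against 2.09%. Those higher were Chad, Cnmd, Hapln1 and Acan, with 233, 120, 19 and 151 UMIs in the positive and 1, 1, 1 and 19 in the negative cells. These genes reached enough UMIs only through the 2 cells of high Col2a1, so the counts describe them and support nothing. For Acan the ratio was 136 (83.9 to 231). The gene that was lower was Tnmd, with 1 UMI against 160, or 2.01 against 18.9 CPM. It was not counted as lower without cells of over 25000 UMIs, with 2 Col2a1 UMIs required, or after each cell was thinned to 5000 UMIs. Comp stood at 195 against 358 CPM, a ratio of 0.546 (0.441 to 0.668), and Cilp at 320 against 285 CPM, a ratio of 1.12 (0.951 to 1.32). Without the 2 cells, 4 of the 10 genes had enough UMIs, and Chad, Cnmd, Hapln1 and Acan were not among them. None of the 4 was higher, against 1.48% of all genes, and Tnmd was lower, against 1.83%. The other 21 positive cells held no UMI of Chad, Cnmd, Hapln1 or Acan. In these 21 cells Comp stood at 212 and Cilp at 351 CPM.

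Over all genes other than Col2a1, the 10 with the highest lower bound of this ratio were Ibsp, Chad, Col9a1, Cnmd, Ucma, Col9a3, Col11a2, Acan, Mia and Col9a2. Ibsp, bone sialoprotein, had 431 UMIs in the positive and 1 in the negative cells, Col9a1, a chain of the type IX collagen that coats type II fibrils, 198 and 3, and Ucma, a small protein of cartilage matrix, 34 and 0. The 2 cells held 95.7% to 100% of the positive cells' UMIs of each. They did not share them evenly. The first cell had 429 Ibsp and 34 Ucma UMIs, and the second, which was shallower, had 2 and 0. The 5 genes with the lowest upper bound were Scg2, Col10a1, Ccl11, Ccl2 and Mmp3. Col10a1, the collagen of hypertrophic cartilage, had 1 UMI in the positive and 529 in the negative cells, and none in the 2 cells. Of 15 further cartilage genes 13 had enough UMIs, 7 were higher in the positive cells and none was lower, against 1.67% and 2.09% of all genes. The 7 were Col9a1, Col9a2, Col9a3, Col11a1, Col11a2, Ucma and Sox9. Of Sox9, the first of the 2 cells had 22 UMIs and the shallower second 0. Some of the 7 reached enough UMIs only through the 2 cells, so the counts describe the list and support nothing. When the 2 cells were left out, 7 of the 15 had enough UMIs. None of them was higher and Sox5 was lower, against 1.48% and 1.83% of all genes.

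The wider lists, chosen like the 10 genes with earlier results known, were compared between day 14 and day 0 in fibroblast-like cells, where 7.88% of all genes with enough UMIs were higher and 4.19% lower. Genes with enough UMIs at day 14 and none at day 0 had to be higher, so the counts describe the lists and support nothing. Of 15 further cartilage genes 13 had enough UMIs, 8 were higher and 1 was lower. Without the 2 cells 8 had enough UMIs and 3 were higher, namely Col11a1, Matn4 and Epyc. Col11a1, a fibril collagen chain, then stood at 42.4 CPM against no UMI at day 0, Matn4, a matrilin, at 36 against 9.55 CPM, and Epyc, epiphycan, at 18 against 2.73 CPM. Prg4, the lubricant proteoglycan of joint surfaces, was lower, at 15.6 against 111 CPM. Of 9 further tendon genes 7 had enough UMIs, 5 were higher and none was lower, and these counts were the same without the 2 cells. Thbs4, a thrombospondin of tendon related to Comp, stood at 181 against 3.64 CPM, a ratio of 49.6 (25.1 to 115), and Tnc, tenascin C, at 54.6 CPM against no UMI.

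For the next 3 lists the shares of all genes were likewise 7.88% higher and 4.19% lower. Of 8 bone genes 5 had enough UMIs, Runx2, Ibsp and Spp1 were higher and Alpl and Phex lower. Of the 432 Ibsp UMIs 431 lay in the 2 cells, and of the 80 Spp1 UMIs 52. Without the 2 cells, 4 bone genes had enough UMIs, of which 2 were higher and 2 lower, against 7.77% and 4.19% of all genes. Of 11 genes around hyaluronan and aggrecan 8 had enough UMIs, Has1, a hyaluronan synthase, and Adamts4, a protease that cleaves aggrecan, were higher and none was lower. All 4 genes of the thrombospondin list, which also holds Thbs4, were higher, with Thbs1 at 102 CPM against no UMI and Thbs2 at 384 against 30.9 CPM. The make-up of the class differed between the days, the C1qtnf3 cluster, of which Thbs4 was a leading gene, having no cell of day 0, and its part in these values was not tested. Within the Rbp4 cluster, which was present on both days, 4.41% of all genes were higher and 3.22% lower. There, 2 of 6 cartilage genes with enough UMIs were higher, Col11a1 and Matn4, and Prg4 was lower. Of the tendon genes 3 of 5 were higher, of the bone genes 1 of 3, of the hyaluronan genes 2 of 7 and of the thrombospondins 1 of 2, with none lower. Thbs2 was 11.5-fold (8.43 to 16.2) its day 0 level in that cluster, and Thbs4 had 1 UMI at day 14 against 8 at day 0.

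On days 7 and 14, most of the 15 further cartilage genes with enough UMIs did not share the smooth muscle-like pattern of Acan and Scx. Enough UMIs were held by 7, 8 and 13 of them on days 3, 7 and 14. Of these, 3, 2 and 1 were higher in smooth muscle-like than in fibroblast-like cells, against 12.4%, 10.4% and 10.2% of all genes. Lower were 3, 5 and 11, against 11.5%, 9.89% and 14.8%, so that at day 3 as many were higher as lower. At day 14 without the 2 cells, 1 of 8 was higher and 6 were lower, against 10.2% and 14.8%. The genes that were higher were Sox6 on each day, Sox5 on days 3 and 7 and Matn4 at day 3. Sox6, a partner of Sox9 in the control of cartilage genes, was 34.3-fold (12.8 to 130), 10.4-fold (5.69 to 19.9) and 10.9-fold (5.97 to 20.2) the fibroblast-like level on days 3, 7 and 14, and Sox5 was 2.23-fold (1.54 to 3.22) and 2.3-fold (1.57 to 3.31) on days 3 and 7. Sox9 was lower in smooth muscle-like cells on days 7 and 14, at 0.421-fold (0.299 to 0.58) and 0.306-fold (0.151 to 0.558). In fibroblast-like cells Sox9 stood at 82.7 CPM at day 7 against 23.7 CPM at day 0, a ratio of 3.5 (2.62 to 4.75). Tnc stood at 246 CPM in smooth muscle-like against 38.8 CPM in fibroblast-like cells of day 3.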

How the data were processed

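Single-cell libraries of the carotid artery were made with 10x Genomics 3′ v2 chemistry from pooled mice, 1 library each before injury and 3, 7 and 14 days after it. The authors deposited filtered UMI counts per gene and cell, not normalized, made with Cell Ranger, version 3.0.2 per the file headers, while the study's methods name another version. The mouse reads are stated to have been aligned to GRCh38, so no coordinates were taken from the files. Promoter sequences came from RefSeq, GRCm38.p6.

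Barcodes with under 200 genes or over 20% mitochondrial UMIs were removed (453 of 6161). Scrublet's own threshold marked 15 barcodes (0.243%), so those with the highest scores were removed at 0.8% per 1000 barcodes (106). Of the 217 barcodes found in 2 libraries, the shallower copy was removed, a choice made after the data were seen, as was a second division of mixed clusters. Cells were clustered with scanpy 1.11.5 and the Leiden method, without the genes described, and named from marker lists. The study's annotation was not used here, so class sizes may differ from it.

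UMIs were summed per class and day. Intervals are exact Poisson for levels, exact binomial for shares and exact conditional binomial for ratios. All 10 genes and Col2a1 were named, together with list genes past 2-fold, the 3 genes most like each by Pearson correlation, and the 10 highest and 5 lowest genes of the Col2a1 division. The genes and lists were chosen with earlier results of these data known. The calculation of the ratios and calls was tested on simulated counts. These were drawn from the Poisson model that the intervals assume, so they do not cover the spread between cells or libraries. Alternatives changed the clustering, depth limits, fold, filters and cells left out. No columns of per-sample values were left without a sample.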

Additional observations from a re-analysis of the deposited data

Results flagged for a closer look

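Some values lay outside the comparisons above. The day 14 barcode removed for its mitochondrial share held 692 Col2a1, 48 Acan and 8 Chad UMIs.

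Cells without a class also held UMIs of these genes. At day 7, they held 44 Comp, 9 Cilp, 9 Scx, 7 Tnmd and 4 Acan UMIs in 515 cells. At day 14, they held 24 Comp UMIs in 62 cells, or 197 CPM (126 to 293). Of the clusters without a class, 7 carried fibroblast markers, at a median of 902 UMIs a cell.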

How the results depend on the processing

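No paired analysis was possible because each day had 1 library. The number of the 10 genes higher at day 7 than at day 0, 2, was 1 without cells of over 25000 UMIs. The number higher at day 14, 5, was 3 without those cells, 3 without the cell with most UMIs of each gene and 2 without the 2 cells of high Col2a1, the last of which was chosen after the data were seen. The number higher in Col2a1-positive cells, 4, was 2, 2 and 0 in the same order, and 1 when each cell was thinned to 5000 UMIs before the division. Without the 2 cells, Acan, Chad, Cnmd and Hapln1 had too few UMIs to be counted in either comparison. The Col2a1-positive share, 4.6%, was 0.6% when 2 UMIs were required and 0.698% after that thinning. The Comp ratio of day 3 over day 0, 0.184, was 1.05 without cells of over 25000 UMIs, with an interval that included 1. The cause was not tested. With each library clustered on its own, day 0 held 85 fibroblast-like cells, 80 of them among the 210 above. It held 82 smooth muscle-like cells, 11 of them among the 12 above. The Tnmd ratio to day 0 was then 0.524 at day 3 and 4.04 at day 7. Of all values of single genes under the alternatives, these included, 335 kept their side of the threshold, 9 lost it and 5 gained it. The remaining 1, the Comp ratio, crossed 1, with an interval that included 1. With the shared barcodes kept, 93 of 209 fibroblast-like cells of day 3 were shallower copies. Depth limits Cilp2, Mkx and Hapln1, which had too few UMIs for most counts, and smooth muscle-like cells of day 0, of which there were 12.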
